A study of Mus musculus with 15 samples.

Results

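The heat shock and unfolded protein response genes described here were 39 genes chosen by name. They comprised 13 cytosolic heat shock genes, 3 mitochondrial chaperones, 15 chaperones, disulfide isomerases and degradation factors of the endoplasmic reticulum (ER), and 8 stress sensors, transcription factors and feedback genes. The 39 symbols matched 40 of the 65964 entries in the expression table, since Ddit3 had a second identifier. TPM, transcripts per a fixed total and per transcript length, was the unit. A filter of 1 TPM in 3 of 15 libraries left 17505 entries for testing, 37 members among them. Hspa1b and Trib3 did not pass and are given by their values alone.

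The series holds brain RNA of C57BL/6 mice, sequenced as 15 libraries in 5 groups of 3, in a study of epilepsy provoked by kainic acid (KA), a glutamate receptor agonist that causes seizures. APOE_H and APOE_L libraries carried the treatment label for KA together with APOE, KA_H and KA_L libraries that for KA, and CTRL_L libraries were labelled untreated. All 15, the untreated ones included, also carried the model's name as their cell type. The labels define neither the letters H and L nor what was done with APOE, and there was no untreated H group, so H could be compared with L only after KA. Whether the 3 libraries of a group are 3 animals is not stated; the p-values therefore measure the spread between these libraries, which may be technical. Ages, doses and times are not given in the sources used here.

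Heat shock proteins of the Hsp70, Hsp90 and Hsp40 families bind unfolded segments of other proteins in the cytosol, and heat shock factor 1 raises their transcription when misfolded protein accumulates. The ER has its own set, led by Hspa5 (BiP), Hsp90b1 (Grp94), the lectin chaperones calreticulin and calnexin, and protein disulfide isomerases that form and rearrange disulfide bonds. In the unfolded protein response the sensors Ire1 (Ern1), Perk (Eif2ak3) and Atf6 act through the transcription factors Xbp1, Atf4 and the cleaved Atf6 to raise these chaperones, while Ddit3 (Chop) and Ppp1r15a (Gadd34) belong to the Perk and Atf4 arm.

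Depth is unknown, because the files give TPM and no counts. Per library, 12801 to 15452 entries reached 1 TPM in APOE_H and 13192 to 13635 in KA_H. In L libraries the number was lower, at 10161 to 11237 in APOE_L, 9931 to 12085 in KA_L and 10706 to 11182 in CTRL_L. Every H library thus had more such entries than every L library. The part of this difference in the H against L comparisons was not tested. The share of TPM on protein-coding genes was 88.3 to 90.4% in APOE_H, 73.1 to 74.8% in APOE_L, 80.5 to 85.3% in KA_H, 73.9 to 75.1% in KA_L and 78.6 to 83.5% in CTRL_L libraries. Although the labels give brain, all 14 microglia markers were at 1 TPM or more in every library, whereas 1 of 10 neuron markers and 0 of 5 oligodendrocyte precursor markers passed the filter. The 14 microglia markers summed to 30666 to 43354 TPM in APOE_H libraries, against 18992 to 21068 TPM in APOE_L libraries. They summed to 23603 to 29961 TPM in KA_H, 11064 to 19360 TPM in KA_L and 13553 to 48136 TPM in CTRL_L libraries. The summed level of 8 choroid plexus markers was 38239 to 58709 TPM in APOE_H libraries, against 126 to 297 TPM in APOE_L libraries. It was 33077 to 41064 TPM in KA_H libraries, against 57.6 to 1281 TPM in KA_L libraries, and 139, 38940 and 23711 TPM in the CTRL_L libraries. Apoe itself, named in the treatment label, was at 144, 6.49 and 12.4 TPM in APOE_H and at 0.69, 0.71 and 0 TPM in APOE_L libraries, against 8767 to 16636 TPM in KA_H and 1970 to 3262 TPM in KA_L libraries. In bulk RNA, fewer cells of a type and less RNA per cell cannot be told apart.

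Of the 39 members, 23 were at 1 TPM or more in all 15 libraries, 16 had a mean over the libraries of 100 TPM or more, and 11 were listed at 0 in at least 1 library. A listed 0 may be a failed estimate or a low level, which cannot be told apart here. The glycolytic gene Pgk1 was also listed at 0 in 1 APOE_L and 1 CTRL_L library. By mean TPM, a level per transcript length, the highest members were Hspa8 (555 TPM), the constitutive cytosolic Hsp70, Hspa5 (415 TPM), the ER Hsp70, and Pdia3 (373 TPM), an ER disulfide isomerase that works with calreticulin and calnexin. Hsp90aa1 (313 TPM) and Hsp90b1 (261 TPM), the stress-inducible cytosolic Hsp90 and the ER Hsp90, followed. The heat-inducible Hsp70 genes were near 0. Hspa1a was listed at 0 in 10 libraries and exceeded 1 TPM in 3, with 6.93 TPM in APOE_H replicate 2, 4.58 TPM in CTRL_L replicate 1 and 3.38 TPM in CTRL_L replicate 2. Hspa1b did not exceed 0.25 TPM in any library, and Trib3, a pseudokinase induced by Atf4 and Chop, did not exceed 0.53 TPM.

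Of the 37 tested members, 22 had their highest group mean in APOE_H, against 25.3% of all 17505 tested entries. The lowest group mean was in APOE_L for 18 members. The share of all tested entries lowest there was not computed, so this count is not a result about the members. Summed over all 39 members, the level was 7958 ± 712 TPM in APOE_H and 2354 ± 56.9 TPM in APOE_L libraries (SD, n = 3 each). It was 3222 ± 183 TPM in KA_H, 3214 ± 484 TPM in KA_L and 4719 ± 971 TPM in CTRL_L libraries (SD, n = 3 each). The sums of KA_H and KA_L differed by less than their spread. APOE_H libraries were also the most alike, with a median coefficient of variation over the tested members of 28.2%, against 59.3% in APOE_L and 35.4% in KA_H. Over all tested entries it was 74.2% in APOE_H, 107.6% in APOE_L and 87.3% in KA_H, so the lower spread was not particular to the members.

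**Figure D1:**
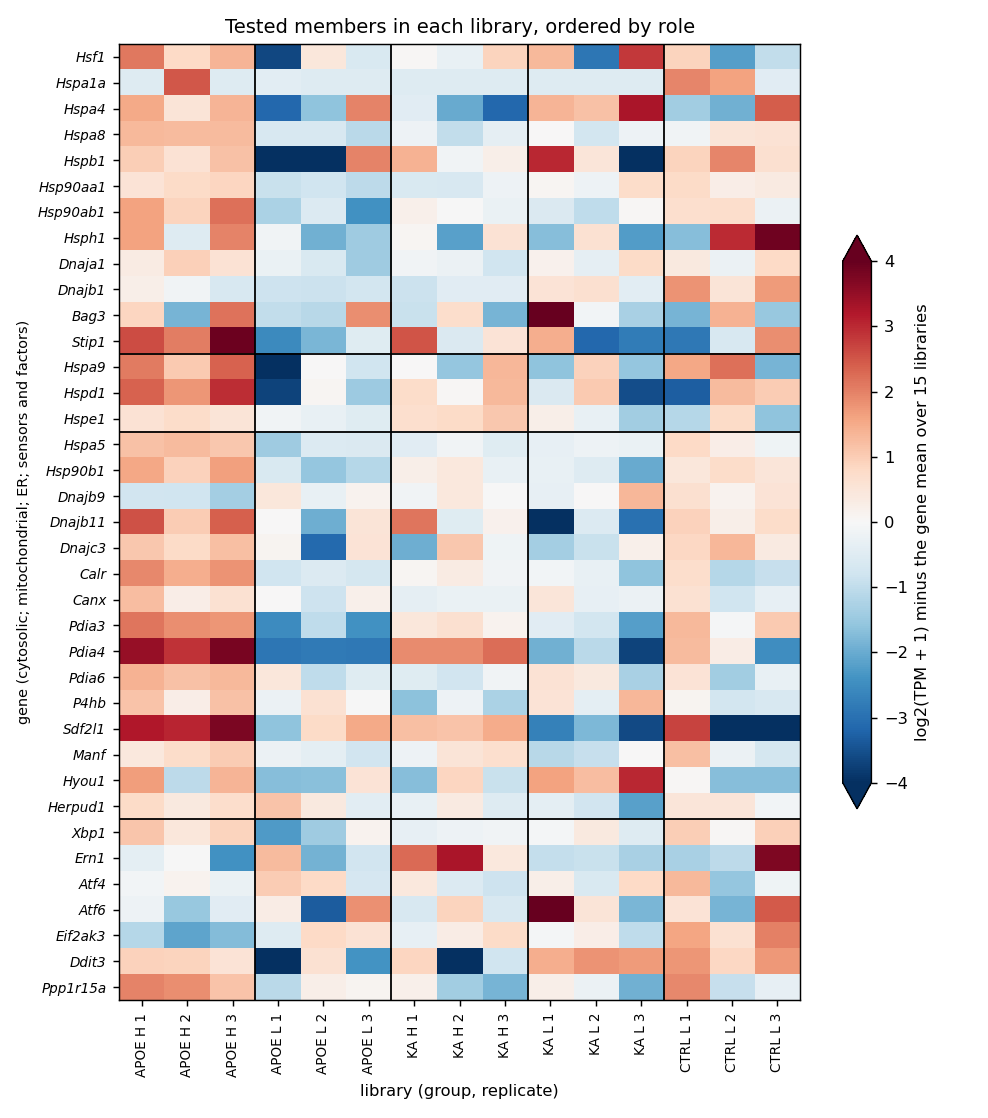
Colour gives log2(TPM + 1) of each of the 37 tested members minus its mean over the 15 libraries (colours are capped at 4 log2 units either way), with libraries as columns and genes as rows in the order cytosolic, mitochondrial, ER, sensors and factors. The APOE_H columns are above the gene mean for most chaperones, and Dnajb9 and Eif2ak3 run the other way.

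Promoter sequence was examined because several ER members moved together. The RefSeq promoter table (GRCm38.p6, 250 bases before to 50 after each transcript start) matched 31 of the 39 members through 36 promoters. The ER stress element, spelled CCAAT, 9 bases of any kind and CCACG, is the form bound by Atf6 with NF-Y. It was found on either strand in 0.119% of all 32851 promoters in the table, and in 6 of the 13 ER members with a promoter. These were Hspa5, Hsp90b1, Calr, Canx, Pdia6 and Dnajc3. A match describes the letters in this window and says nothing about binding. The 250 bases upstream of the start are shown for the matching genes that rose in APOE_H against APOE_L, with the element in capitals, which on the opposite strand begins CGTGG. They lie at chr2:34771840-34772089 on the forward strand for Hspa5, at chr10:86705445-86705694 on the reverse strand for Hsp90b1, which has 2 copies, and at chr8:84846932-84847181 on the reverse strand for Calr.
Hspa5: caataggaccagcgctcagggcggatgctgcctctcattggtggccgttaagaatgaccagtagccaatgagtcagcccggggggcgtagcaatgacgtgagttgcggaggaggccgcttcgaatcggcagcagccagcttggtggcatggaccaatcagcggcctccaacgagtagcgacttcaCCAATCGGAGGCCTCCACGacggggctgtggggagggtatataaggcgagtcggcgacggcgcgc
Hsp90b1: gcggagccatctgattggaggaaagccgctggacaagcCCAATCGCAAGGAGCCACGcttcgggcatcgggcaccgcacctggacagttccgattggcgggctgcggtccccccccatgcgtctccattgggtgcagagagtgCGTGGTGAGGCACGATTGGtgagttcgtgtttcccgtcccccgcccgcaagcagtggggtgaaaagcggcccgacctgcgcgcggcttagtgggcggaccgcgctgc
Calr: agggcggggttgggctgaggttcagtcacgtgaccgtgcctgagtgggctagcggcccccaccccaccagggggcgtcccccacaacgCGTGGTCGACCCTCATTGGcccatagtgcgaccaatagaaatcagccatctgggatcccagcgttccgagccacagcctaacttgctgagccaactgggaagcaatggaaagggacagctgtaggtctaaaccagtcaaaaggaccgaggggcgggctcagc
For the other matching genes 60 bases around the element are given, at chr11:50325779-50325838 on the reverse strand for Canx, at chr12:17266471-17266530 on the forward strand for Pdia6 and at chr14:118937807-118937866 on the forward strand for Dnajc3.
Canx: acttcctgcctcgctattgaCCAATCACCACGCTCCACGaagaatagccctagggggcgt
Pdia6: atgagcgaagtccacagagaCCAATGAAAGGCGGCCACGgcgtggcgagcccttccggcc
Dnajc3: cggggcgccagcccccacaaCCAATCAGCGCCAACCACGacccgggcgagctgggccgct
The promoters of Pdia3, Pdia4, Sdf2l1 and Dnajb11 held no match to any motif searched in this window, although the first 2 had the smallest p-values of all members. Heat shock elements were searched on both strands as GAA and TTC, in either order, with 2 bases of any kind between them. They were in 15.1% of all promoters and in 10 of the 36 promoters of members. Counted by gene, with a match in any of its promoters, they were in 6 of 9 cytosolic members with a promoter. Of the other roles, 2 of 2 mitochondrial members, 0 of 13 ER members and 1 of 7 sensors and factors, Eif2ak3, had them. The longer forms with a further repeat of GAA or TTC after 2 more bases of any kind, which contain the shorter ones, were in 0.603% of all promoters and in Hspd1, Hspe1 and Hsph1. Hspd1 and Hspe1 (Hsp60 and Hsp10) are transcribed head to head and share the stretch shown, at chr1:55088039-55088098 on the forward strand, with its heat shock element in capitals.
Hspe1: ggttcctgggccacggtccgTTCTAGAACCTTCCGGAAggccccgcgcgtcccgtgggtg
The Atf4 element, spelled TGATG, 1 base of any kind and AA, was in 3.97% of all promoters, and among the members in Herpud1 and Trib3.

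The inducible Hsp70 genes Hspa1a and Hspa1b are shown because their near identity limits what their values mean. Their upstream 250 bases were identical at 247 positions, and the nearest 150 at 149. The capitals mark a heat shock element in the last 150 bases, at chr17:34972157-34972306 on the reverse strand for Hspa1a and at chr17:34959239-34959388 on the reverse strand for Hspa1b.
Hspa1a: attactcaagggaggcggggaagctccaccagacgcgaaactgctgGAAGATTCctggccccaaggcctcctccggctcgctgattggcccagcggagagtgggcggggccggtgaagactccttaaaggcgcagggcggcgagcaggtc
Hspa1b: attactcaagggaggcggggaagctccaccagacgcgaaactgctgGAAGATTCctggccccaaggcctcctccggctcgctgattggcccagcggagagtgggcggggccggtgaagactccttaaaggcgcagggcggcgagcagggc
Of the 50-base windows in the Hspa1b transcript, 62.3% also occur in Hspa1a or another gene. For Hspa8 the share was 73.2%, nearly all of it with the pseudogene Gm15459, which was listed at 0.06 to 34.1 TPM. For Hsp90aa1 it was 58.5%, for Hspb1 51.6%, for Hspd1 44.8%, for Hspe1 36.1% and for Dnaja1 18.7%. The handling of reads that fit several genes is not given in the sources used here, so the levels of these genes are uncertain. Of the 15 ER members, Dnajb9 shared the most, 5.80%.

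In APOE_H against APOE_L, 8 of the 37 tested members rose and 0 fell (limma, Benjamini-Hochberg adjusted p under 0.05 over all tested entries), where 4.7% of all tested entries were called higher and 1.45% lower. These 8 were Pdia3, Pdia4, Hspa8, Hspa5, Hsp90ab1, Hsp90b1, Calr and Hsp90aa1, that is 5 of 15 ER members and 3 of 12 tested cytosolic members. None of the 3 mitochondrial members and none of the 7 tested sensors and factors passed. In 23 members all 3 APOE_H libraries lay above all 3 APOE_L libraries, where this held for 20.1% of all tested entries, and in 2 they lay below, where it held for 9.65%. The median log2 fold change, on the log2(TPM + 1) scale, which understates changes of low genes, was 1.90 over the 37 members and 0.54 over all tested entries. It was positive for 32 members, or 31 under quantile normalization, where Bag3 changed sign, and under rescaling to the protein-coding total, where Herpud1 did. Of all entries called in this comparison 76.4% were higher, and 57.5% under quantile normalization.

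Among the ER chaperones, Hspa5, which holds unfolded chains and keeps the sensors inactive, had 816, 877 and 764 TPM in APOE_H libraries, against 134, 246 and 244 TPM in APOE_L libraries. The groups did not overlap, and every APOE_H value was above every value of the other 12 libraries. Its log2 fold change was 2.02 (SE 0.41, limma adjusted p = 0.00915). Hsp90b1, the ER Hsp90, had 605, 389.9 and 649 TPM in APOE_H libraries, against 135, 70.4 and 92.7 TPM in APOE_L libraries. The groups did not overlap, and the lowest APOE_H value lay above every value of the other groups. Its log2 fold change was 2.47 (SE 0.54, limma adjusted p = 0.0138). Calr, the calcium-binding lectin chaperone, had 562, 404 and 514 TPM in APOE_H libraries, against 85.0, 101 and 90.3 TPM in APOE_L libraries. The APOE_L values were close together, with no overlap between the groups. Its log2 fold change was 2.40 (SE 0.60, limma adjusted p = 0.0266). Its membrane-bound relative Canx had 282, 143 and 182 TPM in APOE_H libraries, against 120.3, 66.6 and 139 TPM in APOE_L libraries, without overlap but not called.

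Of the 4 disulfide isomerases among the members, Pdia3 and Pdia4 were called. Pdia3 (Erp57) had 1047, 877 and 823 TPM in APOE_H libraries, against 40.8, 118 and 43.3 TPM in APOE_L libraries. The log2 fold change was 3.91 (SE 0.58, limma adjusted p = 0.00186), the smallest p among the members. Pdia4 (Erp72) had 155, 104 and 194 TPM in APOE_H libraries, against 0.91, 0.97 and 0.94 TPM in APOE_L libraries. All APOE_L libraries thus lay just under the filter minimum of 1 TPM, and the log2 fold change was 6.24 (SE 1.07, limma adjusted p = 0.00486). Pdia6, with 323, 280.2 and 304 TPM in APOE_H libraries and 168, 60.5 and 88.1 TPM in APOE_L libraries, did not overlap and was not called. P4hb, the founding member of the family, did overlap, with 230.1, 125 and 236 TPM in APOE_H libraries and 89.2, 159 and 103 TPM in APOE_L libraries.

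Helpers of Hspa5 and ER degradation factors did not pass the test in this comparison. Sdf2l1, a partner of ER Hsp40 proteins, had 237, 213 and 349 TPM in APOE_H libraries, against 7.56, 43.2 and 72.6 TPM in APOE_L libraries. Dnajb11, an ER Hsp40, had 149.7, 50.3 and 135 TPM in APOE_H libraries, against 25.1, 5.57 and 35.3 TPM in APOE_L libraries. Both were without overlap. Dnajb9 (Erdj4), an Hsp40 that promotes the return of Ire1 to its inactive form, ran the other way, with 35.6, 34.4 and 23.2 TPM in APOE_H libraries and 84.0, 49.4 and 67.5 TPM in APOE_L libraries. Manf, a secreted factor of the ER lumen, averaged 195 ± 40.5 TPM in APOE_H and 84.9 ± 15.4 TPM in APOE_L libraries (SD, n = 3 each). Dnajc3, which restrains Perk, averaged 45.0 ± 6.55 TPM in APOE_H and 19.02 ± 15.7 TPM in APOE_L libraries (SD, n = 3 each). In Manf and Dnajc3 the groups were also apart. Herpud1, a scaffold of ER-associated degradation, overlapped between the groups, with 267, 203 and 254 TPM in APOE_H libraries and 342, 203 and 114 TPM in APOE_L libraries. Hyou1, the large ER Hsp70 relative, was low, with 9.44, 0.59 and 7.31 TPM in APOE_H libraries and 0, 0.03 and 3.79 TPM in APOE_L libraries.

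**Figure D2:**
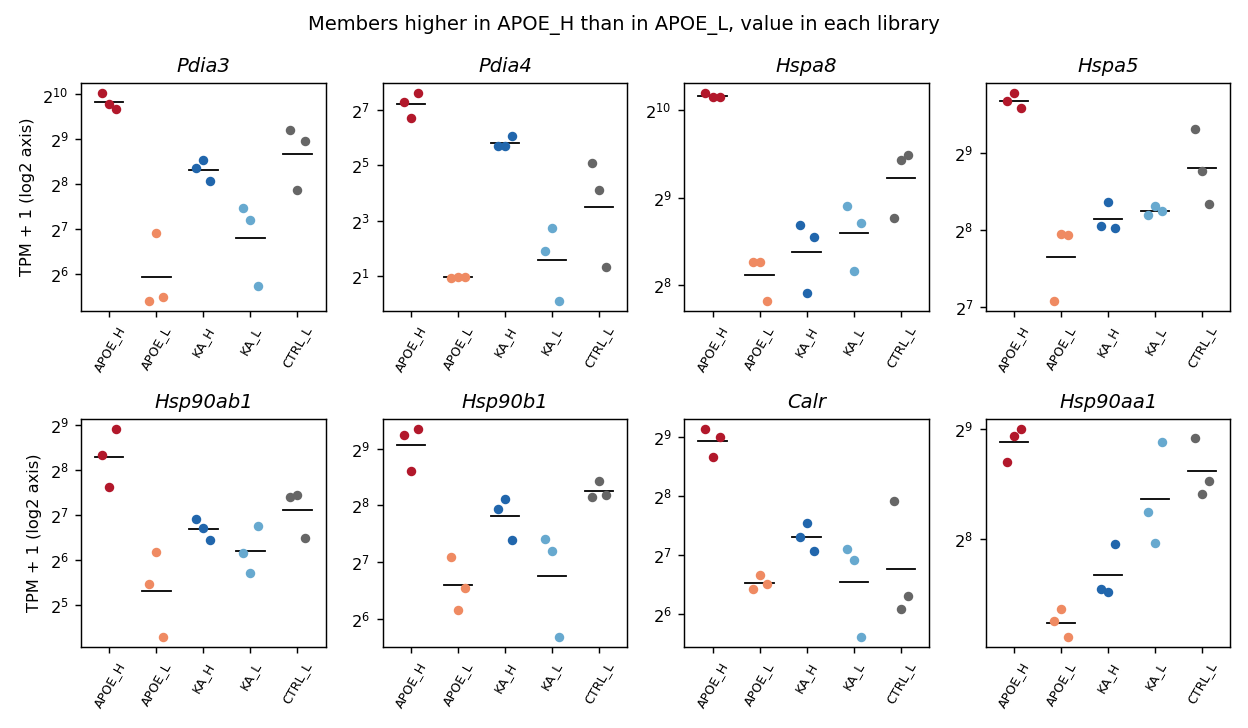
Each panel plots TPM + 1 on a log2 axis in every library for 1 of the 8 members called in APOE_H against APOE_L; points are libraries and lines the group means of log2(TPM + 1). The 3 APOE_H points stand above the APOE_L points in every panel, and the KA_H points stand above the KA_L points for Pdia3 and Pdia4.

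Among the cytosolic members, Hspa8, which uncoats clathrin vesicles and folds new chains, had 1170.3, 1135 and 1137 TPM in APOE_H libraries, against 306.2, 306.5 and 225 TPM in APOE_L libraries. The highest value outside APOE_H was 714 TPM, in CTRL_L replicate 3. The log2 fold change was 2.05 (SE 0.38, limma adjusted p = 0.00629). Hsp90aa1 had 415, 489 and 512 TPM in APOE_H libraries, against 152, 163 and 137 TPM in APOE_L libraries. It rose by a log2 fold change of 1.64 (SE 0.42, limma adjusted p = 0.0288). Hsp90ab1, the constitutive Hsp90, had 319, 196 and 479.8 TPM in APOE_H libraries, against 43.0, 70.8 and 18.5 TPM in APOE_L libraries. Its APOE_H values were spread widely, yet the lowest lay above every value of the other groups. Its log2 fold change was 2.98 (SE 0.65, limma adjusted p = 0.0135).

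The other cytosolic members were not called. Stip1 (Hop), which hands clients from Hsp70 to Hsp90, had 76.8, 51.3 and 192 TPM in APOE_H libraries, against 1.17, 2.56 and 8.13 TPM in APOE_L libraries, without overlap. Hsf1, the transcription factor of the heat shock response, had 52.9, 20.7 and 31.2 TPM in APOE_H libraries, against 0, 16.1 and 7.29 TPM in APOE_L libraries, also without overlap. The Hsp40 genes Dnaja1 and Dnajb1 averaged 199.98 ± 43.7 and 62.4 ± 18.6 TPM in APOE_H, against 79.2 ± 30.03 and 38.9 ± 1.68 TPM in APOE_L libraries (SD, n = 3 each). Hspa4, Hspb1 (Hsp25), Hsph1 (Hsp110) and Bag3 overlapped between the groups. Hspb1, a small heat shock protein, was listed at 0 in 2 APOE_L libraries and at 82.8 TPM in the third, against 40.4, 30.3 and 45.8 TPM in APOE_H libraries.

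All 3 mitochondrial members were higher in each APOE_H library than in any APOE_L library and were not called. Hspa9 (mortalin), the matrix Hsp70, had 73.2, 35.7 and 90.1 TPM in APOE_H libraries, against 0, 16.7 and 9.18 TPM in APOE_L libraries. Hspd1 had 68.7, 44.5 and 103 TPM in APOE_H libraries, against 0.04, 13.1 and 3.92 TPM in APOE_L libraries. Hspe1, its cochaperonin, had 130.2, 145 and 125 TPM in APOE_H libraries, against 78.6, 71.2 and 62.3 TPM in APOE_L libraries.

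The sensors and factors went both ways, and no test between the role groups was run. Their median log2 fold change in APOE_H against APOE_L was -0.32 over 7 tested genes, beside 2.05 over 12 cytosolic and 1.84 over 15 ER members, and 4 of the 7 were negative. Their summed level was 564 to 829 TPM in APOE_H libraries, against 291 to 395 TPM in APOE_L libraries, without overlap. Xbp1, whose spliced form drives ER chaperone genes, had 211, 131 and 181 TPM in APOE_H libraries, against 19.1, 35.03 and 107 TPM in APOE_L libraries. Ppp1r15a, the phosphatase subunit that reverses the translational block, had 455, 417 and 255 TPM in APOE_H libraries, against 54.0, 135 and 125 TPM in APOE_L libraries. Neither overlapped and neither was called. Eif2ak3 lay lower, with 8.72, 3.92 and 5.44 TPM in APOE_H libraries, against 14.0, 35.8 and 30.7 TPM in APOE_L libraries. It was not called, but under quantile normalization its log2 fold change of -3.18 passed (limma adjusted p = 0.0402).

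Ern1, Atf6 and Atf4 overlapped between APOE_H and APOE_L. Atf4, the factor translated when eIF2 is phosphorylated, had 73.5, 86.2 and 65.7 TPM in APOE_H libraries, against 160.1, 137 and 49.3 TPM in APOE_L libraries. Ddit3, the factor linked to death after lasting ER stress, had 61.7, 59.7 and 46.8 TPM in APOE_H libraries, against 0, 49.3 and 5.20 TPM in APOE_L libraries. A second Ddit3 entry, ENSMUSG00000116429, overlaps the same locus on the same strand and shares 6.66% of the 50-base windows. It was listed at 98.9 TPM in APOE_H replicate 3, at 8.31 TPM in KA_H replicate 3 and at 0 in the other libraries, so the Ddit3 values of those 2 libraries are uncertain. Splicing of Xbp1 and cleavage of Atf6, the steps that switch these factors on, cannot be read from TPM per gene.

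**Figure D3:**
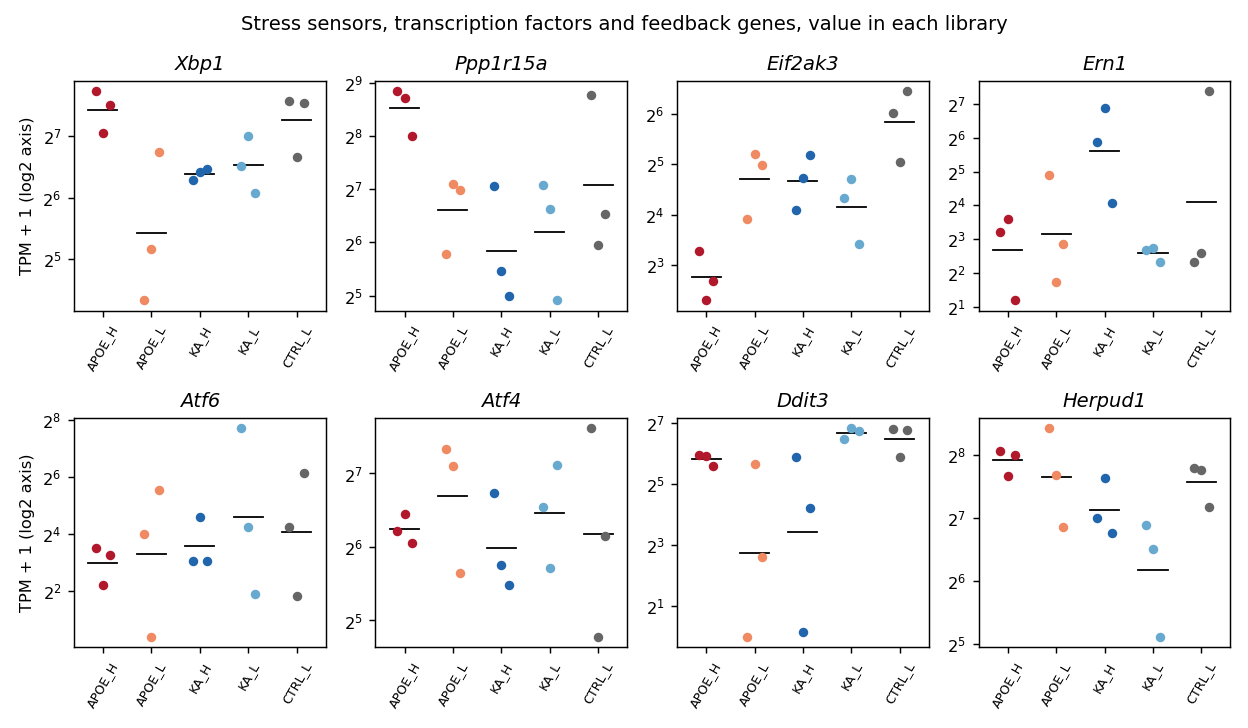
Each panel plots TPM + 1 on a log2 axis in every library for 7 sensors, factors and feedback genes and for Herpud1; points are libraries and lines the group means of log2(TPM + 1). Xbp1 and Ppp1r15a are higher and Eif2ak3 lower in all APOE_H than in all APOE_L libraries, none of them called, while Ern1, Atf6 and Atf4 overlap.

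The count of 8 called members depended on single libraries. It was 5 without APOE_L replicate 2, 5 without APOE_H replicate 1 and 4 without APOE_H replicate 3, and it lay between 4 and 9 over all leave-outs. Under upper-quartile scaling it was 7, and after rescaling to the protein-coding total also 7. Pdia3, Pdia4, Hspa8 and Hspa5 stayed past the threshold in all 22 alternative settings tried. Calr and Hsp90aa1 did not pass when any APOE_H or APOE_L library was left out, with limma adjusted p up to 0.0918 for Calr and 0.101 for Hsp90aa1. Hsp90ab1 did not pass without APOE_L replicate 3 or APOE_H replicate 3, with adjusted p up to 0.0707. Hsp90b1 did not pass without APOE_L replicate 2, APOE_H replicate 1 or APOE_H replicate 3, with adjusted p up to 0.0622. The choroid plexus and microglia marker sums and the protein-coding share moved with this comparison, in the ranges given above. Their part in it was not tested.

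In KA_H against KA_L, 0 of 37 members passed (limma), where 1.49% of all tested entries were called. At an unadjusted p under 0.05 there were 9 members, and 14.8% of all tested entries. All 3 KA_H libraries lay above all KA_L libraries for 6 members, where this held for 10.5% of all tested entries, and below for 5, where it held for 9.12%. The median log2 fold change was 0.00 over the members and 0.11 over all tested entries, with 18 members positive and 18 negative, but 24 positive and 12 negative under upper-quartile scaling and under quantile normalization, where Hspa5, Dnajb9, Canx and Xbp1 were among those that changed sign. Pdia4 came nearest, with 50.9, 50.5 and 64.7 TPM in KA_H libraries, against 2.71, 5.66 and 0.07 TPM in KA_L libraries. Its log2 fold change was 4.23 (SE 1.07, limma adjusted p = 0.0605), and it passed under upper-quartile scaling (0.0311) and quantile normalization (0.0369). It also passed without KA_L replicate 2, CTRL_L replicate 1 or CTRL_L replicate 3, and over all settings the number of members called was 0 to 2. The choroid plexus marker sum, the microglia marker sum and the protein-coding share did not overlap between KA_H and KA_L libraries. Their part was not tested.

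Dnajb11 had 111, 17.5 and 27.7 TPM in KA_H libraries, against 0, 16.4 and 2.25 TPM in KA_L libraries (log2 fold change 3.35, limma adjusted p = 0.161). Sdf2l1 had 58.3, 56.8 and 71.1 TPM in KA_H libraries, against 3.01, 6.49 and 1.12 TPM in KA_L libraries (3.97, limma adjusted p = 0.221). It passed only when CTRL_L replicate 1 was left out (limma adjusted p = 0.0367). Pdia3 had 325, 369 and 266 TPM in KA_H libraries, against 176, 145 and 51.6 TPM in KA_L libraries (1.52, limma adjusted p = 0.227). Hspa4, an Hsp110-type exchange factor, ran the other way, with 12.1, 3.48 and 1.06 TPM in KA_H libraries and 45.1, 39.5 and 173 TPM in KA_L libraries (-3.80, limma adjusted p = 0.207). Hspa5 had 263, 328 and 259 TPM in KA_H libraries and 292, 317 and 304 TPM in KA_L libraries, so these groups overlapped.

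**Figure D4:**
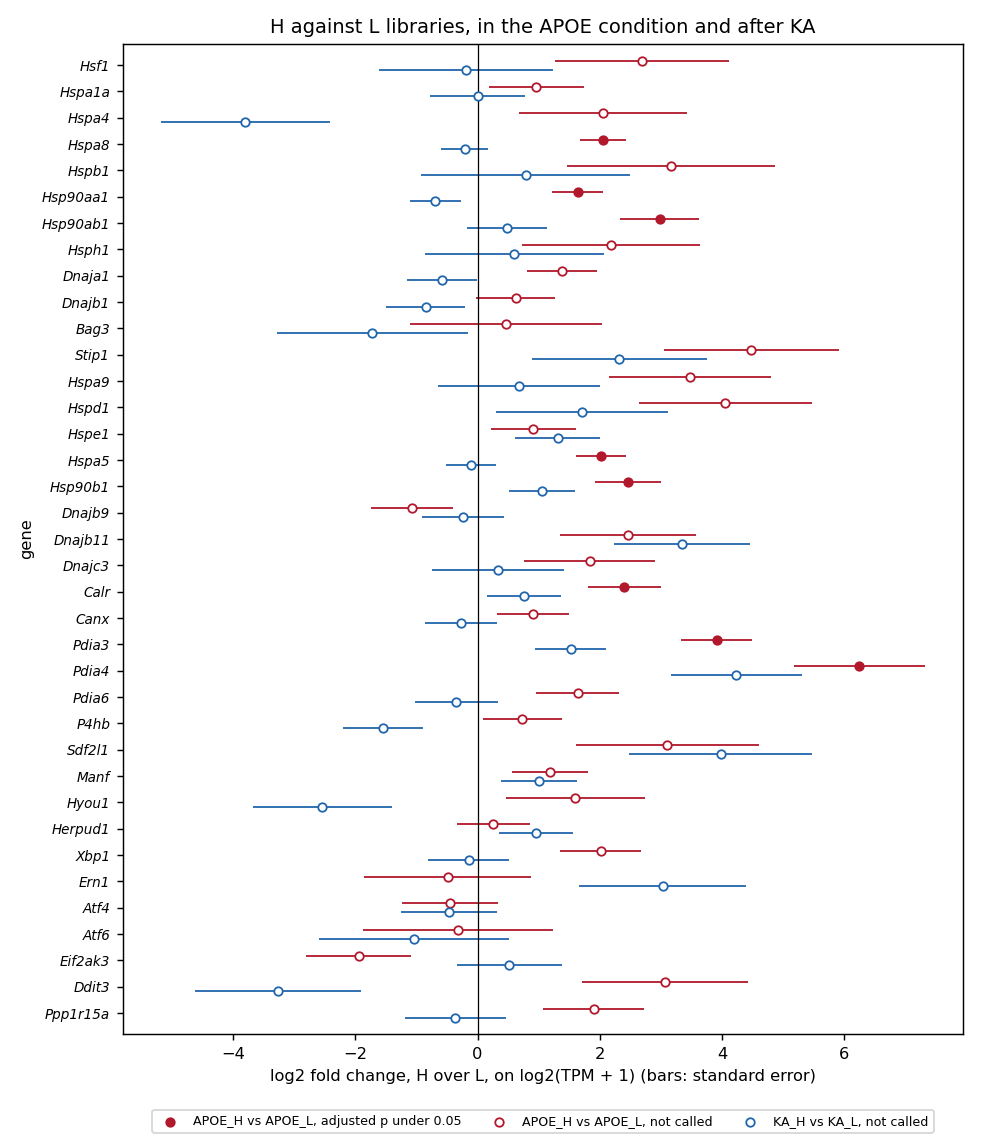
Points give the log2 fold change of H over L on the log2(TPM + 1) scale for each tested member, red for APOE_H against APOE_L and blue for KA_H against KA_L; bars are standard errors from limma and filled points have an adjusted p under 0.05. The red point lies to the right of the blue one for 30 members and to the left for Hspe1, Dnajb9, Dnajb11, Sdf2l1, Herpud1, Ern1 and Eif2ak3.

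Whether the H against L difference itself differed between the conditions was tested as an interaction. It passed for 0 of 37 members (limma), where 0.0457% of all tested entries were called. At an unadjusted p under 0.05 there were 11 members, and 8.32% of all tested entries. The interaction was positive for 30 members, or 28 under upper-quartile scaling (Manf and Atf4 changed sign), 27 under quantile normalization (also Atf6) and 29 after protein-coding rescaling (Atf4), and its median was 1.98 over the members and 0.38 over all tested entries. The smallest p-values belonged to Hspa8 (log2 interaction 2.26, SE 0.54, limma adjusted p = 0.176), Hsp90aa1 (2.33, SE 0.59, 0.240) and Hspa5 (2.13, SE 0.57, 0.283), with Ddit3 (6.32, 0.385) and Hspa4 (5.85, 0.451) after them.

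Averaged over both conditions, 10 of 37 members were called higher in H than in L libraries and 0 lower (limma, adjusted p under 0.05), where 7.72% of all tested entries were called higher and 2.46% lower. All 6 H libraries lay above all 6 L libraries for Pdia3, Pdia4 and Hspe1, where this held for 3.42% of all tested entries. The log2 fold change was 5.24 for Pdia4 (limma adjusted p = 0.000623), 2.72 for Pdia3 (0.0008) and 1.76 for Hsp90b1 (0.00808). These 3 stayed past the threshold in all 22 alternative settings. Hsp90ab1 (1.73, limma adjusted p = 0.0236) passed in 18, Calr (1.58, 0.0256) in 17 and Dnajb11 (2.91, 0.0262) in 16 of them. Hspa8 (0.92, limma adjusted p = 0.0383), Stip1 (3.40, 0.0412), Sdf2l1 (3.54, 0.0417) and Hspa5 (0.96, 0.0434) passed in 8 to 10 of the 22. The count was 3 without APOE_H replicate 1, APOE_H replicate 3 or KA_H replicate 1, 5 without APOE_L replicate 2 or KA_L replicate 3, and 6 without APOE_L replicate 1, APOE_H replicate 2 or KA_H replicate 3. Of all called entries 75.9% were higher, and 57.6% under quantile normalization. Among the called members, the KA_H and KA_L values overlapped for Hspa8, Hspa5, Hsp90b1, Hsp90ab1, Calr and Stip1. They did not overlap for Pdia3, Pdia4, Dnajb11 and Sdf2l1.

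Between conditions, members were compared within the same letter. In APOE_H against KA_H, 1 of 37 members rose and 0 fell (limma), where 0.36% of all tested entries were called higher and 0.171% lower. At an unadjusted p under 0.05 there were 13 members, and 8.63% of all tested entries. Hspa8 had 1170.3, 1135 and 1137 TPM in APOE_H libraries, against 409.9, 240.1 and 374 TPM in KA_H libraries, without overlap. Its log2 fold change was 1.78 (SE 0.38, limma adjusted p = 0.0439), and it passed in 3 of 22 alternative settings, with adjusted p up to 0.197. In 18 members every APOE_H library lay above every KA_H library, where this held for 14.6% of all tested entries, and in 3 below, where it held for 6.51%. The median was 1.25 over the members and 0.25 over all tested entries, and 32 members were positive, or 31 under upper-quartile scaling and quantile normalization, where Atf4 changed sign. Of all called entries 67.7% were higher, against 53.5% under upper-quartile scaling and 40% under quantile normalization.

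Hspa5 had 816, 877 and 764 TPM in APOE_H libraries, against 263, 328 and 259 TPM in KA_H libraries (log2 fold change 1.53, limma adjusted p = 0.157). Ppp1r15a had 455, 417 and 255 TPM in APOE_H libraries, against 133, 43.1 and 31.0 TPM in KA_H libraries (2.67, limma adjusted p = 0.279). P4hb had 230.1, 125 and 236 TPM in APOE_H libraries, against 32.8, 90.05 and 42.9 TPM in KA_H libraries (1.89, limma adjusted p = 0.357). Hsp90aa1 had 415, 489 and 512 TPM in APOE_H libraries, against 186, 182 and 247 TPM in KA_H libraries (1.21, limma adjusted p = 0.367). None of these passed. The members that lay below were Dnajb9, Ern1 and Eif2ak3. Ern1, the Ire1 kinase and endonuclease, had 8.34, 11.1 and 1.29 TPM in APOE_H libraries, against 57.9, 117 and 15.6 TPM in KA_H libraries. The choroid plexus marker sum overlapped between these 2 groups, at 38239 to 58709 TPM in APOE_H and 33077 to 41064 TPM in KA_H libraries. The protein-coding share did not. Nor did the microglia marker sum, at 30666 to 43354 TPM in APOE_H and 23603 to 29961 TPM in KA_H libraries. The sum of 8 oligodendrocyte markers was also apart, at 63.0 to 106 TPM in APOE_H and 17.1 to 25.6 TPM in KA_H libraries. The part of these differences was not tested.

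In APOE_L against KA_L, 0 of 37 members passed (limma), where 0.0457% of all tested entries were called. At an unadjusted p under 0.05 there were 4 members, and 7.84% of all tested entries. The median log2 fold change was -0.38 over the members and -0.04 over all tested entries, with 27 members negative, or 23 under upper-quartile scaling and 21 under quantile normalization, where Hsp90b1, Dnajc3 and Calr were among those that changed sign. In 5 members every APOE_L library lay below every KA_L library, where this held for 5.52% of all tested entries, and in 1, Sdf2l1, above, where it held for 3.57%. Ddit3 had 0, 49.3 and 5.20 TPM in APOE_L libraries, against 88.7, 113 and 106 TPM in KA_L libraries, without overlap (-3.93, limma adjusted p = 0.458). Hsp90aa1 had 152, 163 and 137 TPM in APOE_L libraries, against 303, 249.2 and 470.3 TPM in KA_L libraries, also without overlap (-1.12, limma adjusted p = 0.501). Neither passed the threshold. Hyou1 had 0, 0.03 and 3.79 TPM in APOE_L libraries, against 8.98, 6.64 and 25.5 TPM in KA_L libraries, without overlap (-2.89, limma adjusted p = 0.549). Herpud1 had 342, 203 and 114 TPM in APOE_L libraries, against 118, 90.04 and 33.6 TPM in KA_L libraries, with 1 value overlapping (1.48, limma adjusted p = 0.568). Hspa4 overlapped as well (-2.85, limma adjusted p = 0.650). Averaged over H and L, 0 of 37 members passed in APOE against KA (limma), where 0.0171% of all tested entries were called. At an unadjusted p under 0.05 there were 5 members, and 8.23% of all tested entries. Herpud1 (1.13, limma adjusted p = 0.508), Ppp1r15a (1.54, 0.512), Hspa8 (0.65, 0.529), Sdf2l1 (2.49, 0.538) and Dnajb11 (1.82, 0.551) had the smallest p-values there.

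KA treatment could be compared with untreated libraries within L. The protein-coding share did not overlap, at 73.9 to 75.1% in KA_L and 78.6 to 83.5% in CTRL_L libraries. The choroid plexus marker sum was 57.6 to 1281 TPM in KA_L, against 139, 38940 and 23711 TPM in CTRL_L libraries. The part of either in this comparison was not tested. In KA_L against CTRL_L, 0 of 37 members passed (limma), where 0.571% of all tested entries were called. At an unadjusted p under 0.05 there were 5 members, and 11.1% of all tested entries. In 8 members every KA_L library lay below every CTRL_L library, where this held for 4.54% of all tested entries, and in 1 above, where it held for 6.27%. The 8 were Hspa1a, Hspa5, Hsp90b1, Dnajb11, Dnajc3, Pdia3, Herpud1 and Eif2ak3, of which 6 are ER chaperones or degradation factors, and the 1 was Hyou1. Hspa1a counts only because a listed 0 in KA_L met 0.04 TPM in CTRL_L replicate 3. It passed the filter with 3 libraries, CTRL_L replicates 1 and 2 among them, so it is no support for the count. The median was -0.68 over the members and 0.00 over all tested entries, with 26 members negative, or 23 under upper-quartile scaling, where Dnaja1, Dnajb9 and Calr changed sign. Of all called entries 30% were higher, and 41.9% under upper-quartile scaling. Pdia3 had 176, 145 and 51.6 TPM in KA_L libraries, against 589, 233 and 496 TPM in CTRL_L libraries (-1.89, limma adjusted p = 0.202). Hsp90b1 had 168, 145 and 50.3 TPM in KA_L libraries, against 284, 345 and 289.6 TPM in CTRL_L libraries (-1.50, limma adjusted p = 0.295). In both, the KA_L values lay below without reaching the threshold. Dnajb11 had 0, 16.4 and 2.25 TPM in KA_L libraries, against 47.5, 29.2 and 41.7 TPM in CTRL_L libraries (-3.37, limma adjusted p = 0.243). Hyou1 had 8.98, 6.64 and 25.5 TPM in KA_L libraries, against 2.36 TPM in 1 CTRL_L library and a listed 0 in the other two (3.08, limma adjusted p = 0.310). Herpud1 had 118, 90.04 and 33.6 TPM in KA_L libraries, against 219, 216 and 143 TPM in CTRL_L libraries (-1.40, limma adjusted p = 0.387). The comparisons above that share KA_L, KA_H, APOE_L or APOE_H libraries are not independent of each other.

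By group, the cytosolic members summed to 2459 ± 233 TPM in APOE_H and 664 ± 19.7 TPM in APOE_L libraries (SD, n = 3 each). They summed to 885 ± 149.8 TPM in KA_H, 1284 ± 356 TPM in KA_L and 1674 ± 192 TPM in CTRL_L libraries. The ER members summed to 4525 ± 522 TPM in APOE_H and 1254 ± 85.9 TPM in APOE_L libraries, with 1791 ± 225 TPM in KA_H, 1357 ± 148 TPM in KA_L and 2217 ± 758 TPM in CTRL_L libraries. In both sums every APOE_H library lay above all other libraries. The sensors and factors summed to 702 ± 133 TPM in APOE_H, 351 ± 53.9 TPM in APOE_L, 347 ± 108 TPM in KA_H, 478 ± 146 TPM in KA_L and 692 ± 373 TPM in CTRL_L libraries, so that APOE_H and CTRL_L overlapped.

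**Figure D5:**
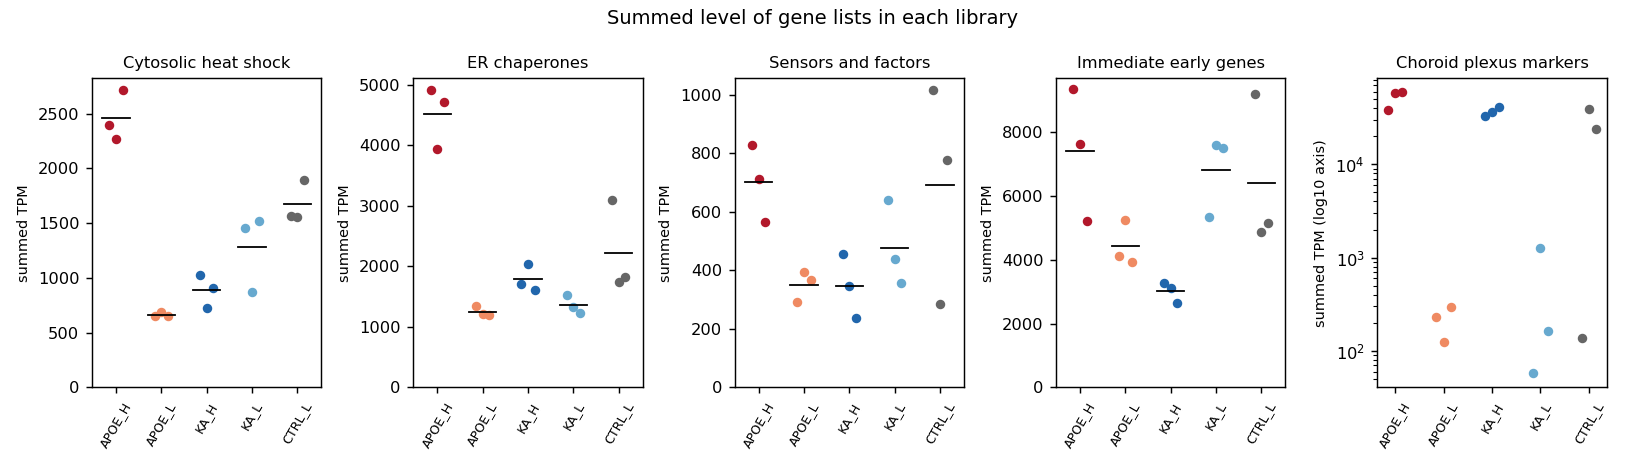
Points give summed TPM per library for 3 role groups of the members, for immediate early genes and, on a log10 axis, for 8 choroid plexus markers; lines are group means. APOE_H libraries are above all others for the cytosolic and ER sums, while choroid plexus marker sums are high in APOE_H, KA_H and 2 of 3 CTRL_L libraries.

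Genes of the same pathways that are not members were counted for comparison. In APOE_H against APOE_L, where 4.7% of all tested entries were called higher and 1.45% lower with a median log2 fold change of 0.54, 5 of 29 tested other heat shock and cochaperone genes (17.2%) rose and 0 fell, with a median of 2.36. Among them were Ahsa1, the activator of Hsp90 ATPase (6.45, limma adjusted p = 0.00319), and the small heat shock proteins Hspb6 (5.84, 0.00456), Cryab (8.33, 0.00957) and Hspb8 (5.43, 0.0283). Ahsa1 had 73.4, 83.5 and 111 TPM in APOE_H libraries, against 0.04, 0.02 and 0 TPM in APOE_L libraries. Hspb6 reached 1 TPM in H libraries only, and Hspb8 in H libraries and 1 CTRL_L library (58.1 TPM). Both passed the filter through the groups where they are high, so their calls are no support for the list. The share of 17.2% includes them. Of 41 tested other ER folding and degradation genes 3 (7.32%) were called higher and 1 lower, with a median of 1.45. Vcp, the segregase that extracts ER proteins for degradation (4.65, limma adjusted p = 0.00957), and Creld2 (5.53, 0.0384) rose. Pdia5 was called higher too (2.30, limma adjusted p = 0.0348), with 7.11, 1.34 and 6.69 TPM in APOE_H libraries and 0.08, 0.12 and 0 TPM in APOE_L libraries. It passed the filter only through the APOE_H group, since 1 other library, of KA_L, reached 1 TPM, so its call is no support for the list. Sel1l, the adaptor of the ER ubiquitin ligase, fell by 2.80 on the log2 scale (limma adjusted p = 0.0256), with 41.4, 23.8 and 67.04 TPM in APOE_H libraries and 468, 503 and 101 TPM in APOE_L libraries. For chaperonin and prefoldin, integrated stress response and immediate early genes the median was 1.12, 1.57 and 1.00. All APOE_H libraries lay above all APOE_L libraries for 50%, 33.3% and 47.4% of them, where this held for 20.1% of all tested entries. They lay below for 7.14%, 0% and 0%, where this held for 9.65%. In these remaining lists the share called higher was near that of all tested entries. It was 1 of 14 chaperonin and prefoldin genes (7.14%), Cct7 (4.27, limma adjusted p = 0.0309), 1 of 21 integrated stress response genes (4.76%), Sars (4.24, 0.0406), and 1 of 19 immediate early genes (5.26%), Jund (3.34, 0.0109), with 0 lower in each.

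In KA_H against KA_L, where 1.49% of all tested entries were called, Hspb6 (4.67, limma adjusted p = 0.0289) and Cct7 (4.67, 0.0463) rose. They were 1 of 29 (3.45%) and 1 of 14 (7.14%) tested genes in their lists. Hspb6 passed the filter only through H libraries, so its call is no support for its list. Fos, an immediate early gene, fell there (-1.86, limma adjusted p = 0.00974). It had 537, 706 and 519.6 TPM in KA_H libraries and 1830, 2480 and 2084 TPM in KA_L libraries. Fos was the only 1 of 19 tested immediate early genes called there. The median over these 19 was -1.10 in KA_H against KA_L, beside 0.11 over all tested entries. In APOE_H against APOE_L it was 1.00, beside 0.54. Averaged over both conditions, H libraries had higher Hspb6 (5.25, limma adjusted p = 0.000314), Ahsa1 (5.09, 0.000595), Cryab (7.32, 0.00133) and Hspb8 (4.83, 0.00548). Of 29 tested other heat shock and cochaperone genes 6 (20.7%) were called higher and 0 lower. Of all tested entries 7.72% were called higher and 2.46% lower. Hspb6 and Hspb8 passed the filter through the H libraries, so their calls are no support for the list. The same holds for Hspa4l, another of the 6. Among L libraries it reached 1 TPM only in KA_L replicate 1 (4.53 TPM) and CTRL_L replicate 3 (32.9 TPM). The share of 20.7% includes all of them. Cct7 (4.47, limma adjusted p = 0.00217) and Gadd45a (2.91, 0.0462) were also higher, 1 of 14 (7.14%) and 1 of 21 (4.76%) tested in their lists. Sel1l (-1.88, limma adjusted p = 0.0219), Fos (-1.01, 0.0101) and Klf4 (-1.82, 0.0280) were lower. These were 1 of 41 other ER folding and degradation genes, of which 0 were higher, and 2 of 19 immediate early genes. Fos overlapped between APOE_H and APOE_L libraries, with means of 1331 and 1403 TPM. In APOE_H against KA_H the immediate early gene Dusp1 rose (1.71, limma adjusted p = 0.0286). It was 1 of 19 tested in its list (5.26%), where 0.36% of all tested entries were called higher. In KA_L against CTRL_L the serine synthesis gene Psat1 rose (6.07, limma adjusted p = 0.00411), with 61.4, 51.7 and 198 TPM in KA_L libraries, against 0, 1.14 and 0 TPM in CTRL_L libraries. Cct7 fell there (-6.16, limma adjusted p = 0.0199), with 0, 2.14 and 0.41 TPM in KA_L libraries and 108, 118 and 123 TPM in CTRL_L libraries. Psat1 was 1 of 21 and Cct7 1 of 14 tested genes in their lists, where 0.571% of all tested entries were called.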

How the data were processed

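Mouse brain RNA was extracted with Trizol and made into libraries with an Illumina TruSeq RNA kit, per the labels' protocols. The authors deposited 1 table of TPM values for 15 libraries (transcripts scaled to a fixed total per library), so a value is a share of the library. Per the submitters' processing notes STAR was used with GRCh38, a human assembly, whereas the gene identifiers are those of mouse. The quantifier, annotation, strand setting and depth are not given in the sources used here. Of 65964 entries, 55416 had mouse Ensembl identifiers and 10548 were assembled loci; 52083 identifiers matched a symbol in the GENCODE annotation of GRCm38, 3333 did not, and 68 entries that shared a symbol were kept by identifier. No 2 libraries held identical values.

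Entries at 1 TPM or more in 3 of 15 libraries were tested. R 4.3.3 with limma 3.58.1 (trended empirical Bayes) was fitted on log2(TPM + 1), with a mean for each of 5 groups over all 15 libraries (10 residual degrees of freedom), two-sided, with Benjamini-Hochberg adjustment over all tested entries in each of 8 comparisons and a threshold of 0.05. The fit was tested on simulated data. Summaries and figures used Python 3.11.15, pandas 2.3.3 and matplotlib 3.10.9. Test values are printed for each member past the threshold and otherwise for members with the smallest p, up to 5 per comparison. Genes of other lists are named where they passed, up to 4 per list and comparison, and Hspa4l in addition. The members and lists were chosen with earlier results of these data known. Alternatives were a pseudocount of 0.1, no filter, upper-quartile scaling, quantile normalization, a replicate block, a fit of the compared groups alone, each library left out and, chosen after seeing the data, TPM rescaled to the protein-coding total.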

Additional observations from a re-analysis of the deposited data

How the results depend on the processing

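Each printed fold change of a member kept its direction, in the comparison for which it is printed, under all 22 alternative settings; sign changes of members in other comparisons are given with those comparisons. In KA_H against KA_L the 0 called members became 1 under upper-quartile scaling and 1 under quantile normalization, in both Pdia4, and 0 to 2 with 1 library left out. In APOE_H against APOE_L the 8 became 7 under upper-quartile scaling, 7 after rescaling to the protein-coding total and 4 to 9 with 1 library left out. Under quantile normalization the 9 called included Eif2ak3, lower. In H against L averaged the 10 became 5 with no filter, 6 after rescaling to the protein-coding total (chosen after seeing the data) and 3 to 11 with 1 library left out. In APOE_H against KA_H the 1 became 0 with no filter, under upper-quartile scaling, quantile normalization, rescaling to the protein-coding total and in a fit of the compared groups alone, and 0 to 1 with 1 library left out. Replicate numbers did not pair the libraries: of 30 pairs of same-numbered libraries 0 had a correlation of deviations over 0.1 (-0.03 to 0.04). With the replicate block the APOE_H against KA_H count was 0 and the averaged H against L count was 7. Over all tested entries, the number called in APOE_H against APOE_L was 1076, and 538 with no filter; in KA_H against KA_L 260, and 100 with no filter, 394 under upper-quartile scaling and 3 in the fit of those groups alone; in KA_L against CTRL_L 100, and 50 with no filter, 62 under upper-quartile scaling and 0 in the fit of those groups alone; in APOE_H against KA_H 93, and 4 with no filter, 25 under quantile normalization, 61 with the block and 0 in the fit of those groups alone. The median of all entries in APOE_H against APOE_L was 0.54, and 0.44 under upper-quartile scaling, -0.06 under quantile normalization and 0.38 after protein-coding rescaling, beside member medians of 1.90, 1.72, 1.56 and 1.63. The causes were not tested. With 3 libraries a group and no counts, differences of low members could not be resolved.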
